A study of Mus musculus with 12 samples.

Results

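Of the 1799 loci that transcript assembly had added to a mouse brain lncRNA count table, 337 were listed with 2 or more transcripts, and these loci are described here. A locus was taken as the identifier of an assembled transcript without its last number, so that MSTRG.17500.1 and MSTRG.17500.2 are 2 transcripts, or rows, of MSTRG.17500. The 337 loci held 974 of the 2436 assembled rows and of the 48033 rows in the table. The other 1462 assembled loci had 1 row each. RNA was sequenced from the hippocampus and the cerebral cortex of 5 × FAD and wild-type (WT) mice, all of the C57BL/6J strain and 7 months old, with 3 libraries in each of the 4 groups. The 5 × FAD mice carry human transgenes with familial Alzheimer's disease mutations, driven by elements of the neuronal Thy1 promoter, and the WT mice are non-transgenic animals of the same age. The design implies a comparison of genotypes within each region and of regions within each genotype.

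Transcript assembly joins overlapping sequencing reads into transcript models, and a prefix such as MSTRG marks a locus that the assembler named itself. Transcripts of a locus can differ in their start, their end or the exons they keep, and many long non-coding RNAs of the brain are spliced in several ways. Reads from the parts that transcripts share cannot be assigned to either with certainty, so the sum over a locus and the share of each row are different measurements. No position, strand or sequence was given beside these identifiers in the files used here, so each locus is named by its identifier alone and nothing is said of its neighbours or its exons.

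The libraries held 3517967 to 5014389 counts, of which the 974 rows took 15.4% to 19.4%. A count of 3, used here as the floor of detection, was worth 0.598 to 0.853 CPM of the unscaled library total, and floors cover counting error only. All other CPM values, of loci, rows and markers, were taken over library sizes scaled by TMM. Markers were summed over those transcripts that the lncRNA table holds, which is not the whole expression of a gene. The 6 genes of the hippocampus marker list with rows in the table were each higher in all 6 hippocampus libraries than in any cortex library. Their summed level was 245.1 to 301.7 CPM against 101.6 to 142.9 CPM. Of the cerebral cortex list 6 genes had rows, and 1 of them was lower in all hippocampus libraries than in any cortex library. Their summed level was 81.8 to 120.5 CPM in hippocampus and 156.0 to 217.4 CPM in cortex. The 3 thalamus markers were at 65.3 to 178.5 CPM in hippocampus and 25.6 to 230.7 CPM in cortex. The series describes each group as 2 females and 1 male. The female-specific Xist was abundant and the Y-linked Kdm5d, Eif2s3y, Uty and Ddx3y were at 0 in 4 libraries, namely 5 × FAD 1 and 5 × FAD 2 of each region, and the other 8 libraries had Y-linked counts. These 8 include all WT libraries, where Xist was at 0.95 to 5.7 CPM, which differs from the described 2 females per group. In comparisons of 5 × FAD with WT this split goes in part with genotype. Counts of locus sums called between genotypes, and fold changes of the sums described, are therefore also given without those libraries. This leaves 1 5 × FAD library in a region, which is assumed to vary like the WT libraries. The p-values of such a fit cannot measure the spread between 5 × FAD libraries and are not printed. The series states that 3 mice made up each group and that each gave both regions, but not whether a library number stands for the same mouse in both. The p-values measure the spread between these libraries. In bulk tissue, fewer cells of a type and less RNA per cell cannot be told apart.

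Most of the loci were small. There were 207 loci with 2 rows, 71 with 3, 27 with 4 and 13 with 5, and the remaining 19 held 6 to 21 rows. MSTRG.2290 had the most rows, 21, followed by MSTRG.6385 with 17 and MSTRG.11555 with 15. In 184 loci (54.6%) the highest transcript number equalled the number of rows, and in the other 153 the numbers ran beyond the rows listed, by a median of 5. The mean locus sum over the 12 libraries had a median of 271.1 CPM, with quartiles of 105.3 and 597.1 CPM. MSTRG.6385 had the largest mean sum, 8229 CPM, and MSTRG.5356 (5277 CPM), MSTRG.3877 (5048 CPM), MSTRG.12856 (3863 CPM) and MSTRG.2290 (3859 CPM) came next. These values are not per length, so they order the counts of the loci and not the molecules of RNA.

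Shares were followed in the 294 loci (87.2%) that had at least 100 counts in every library. The row with the largest share, called the leading row, held a median of 82.7% of its locus over loci and libraries, with quartiles of 61.5% and 100%. In 127 loci (43.2%) the same row led in all 12 libraries. In 129 loci 2 rows led in turn, in 32 loci 3 rows did, and 6 loci had 4 to 6 leading rows.

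Most loci whose leading row changed did so within at least 1 group. A locus was said to switch in a group where the leading row was not the same in its 3 libraries. By this definition 85 of the 294 loci (28.9%) switched in WT hippocampus, 106 (36.1%) in 5 × FAD hippocampus, 86 (29.3%) in WT cortex and 102 (34.7%) in 5 × FAD cortex. In all, 165 loci (56.1%) switched within at least 1 group, and 30 (10.2%) switched within all 4 groups. Only 2 of the 294 loci, MSTRG.17500 and MSTRG.8241, changed the leading row between groups while keeping it within each group. This asks for a constant leading row inside all 4 groups. A locus that follows genotype in 1 region can thus count as switching within a group, as MSTRG.10674, described below, does. The share of switching loci was higher among loci with more rows, with 79 of 175 loci with 2 rows (45.1%), 45 of 64 with 3 rows (70.3%) and 41 of 55 with 4 or more (74.5%). By abundance, it was 56.1% in the 98 loci with the lowest mean counts (144 to 811), 58.2% in the middle 98 and 54.1% in the 98 with the highest (2187 to 35173).

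The size of the switches was large. Within each group the range of a row's share over the 3 libraries was taken, and the widest range of a locus had a median of 40.4 percentage points, with quartiles of 14.0 and 76.7. It was under 10 points in 48 loci, at least 50 points in 129 and at least 90 points in 52. In 24 loci it reached 100 points when rounded, so that a row took all or almost all of the locus in a library and nothing or almost nothing in another library of the same group.

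**Figure D1:**
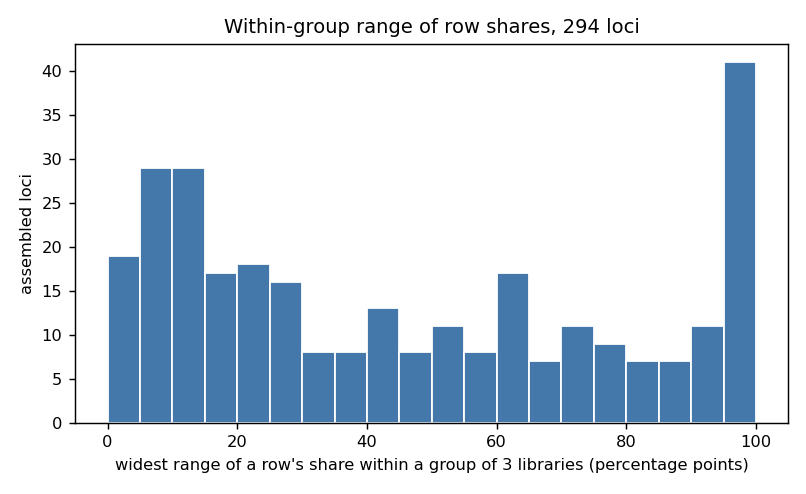
Histogram of 294 assembled loci by the widest range of a row's share of its locus among the 3 libraries of a group (x axis, percentage points; y axis, number of loci; bins of 5 points). The loci spread over the whole scale around a median of 40.4 points, with 48 under 10 points and 52 at 90 points or more.

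MSTRG.4944 illustrates a full switch. Its first row, MSTRG.4944.1, had 1193, 0 and 0 counts in WT hippocampus, 0, 0 and 2003 in 5 × FAD hippocampus, 789, 2454 and 0 in WT cortex and 0, 1084 and 0 in 5 × FAD cortex. Its second row, MSTRG.4944.2, had 0, 1535 and 1319 counts, then 893, 1161 and 0, then 0, 0 and 934, then 1129, 579 and 1003 in the same order. Only 5 × FAD cortex 2 held both rows, and every group held libraries led by either row. The locus sum had a mean of 294.7 ± 35.9 CPM (SD, n = 3) in WT hippocampus and 306.2 ± 119.2 CPM in 5 × FAD cortex.

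MSTRG.15562 was carried by its first row in 11 libraries. That row had 467 to 1136 counts in them and 0 in 5 × FAD cortex 2. The second row, MSTRG.15562.2, had 820 counts in that library and 0 in the other 11. The locus sum there was 218.6 CPM, beside 212.1 and 185.0 CPM in the other 5 × FAD cortex libraries, and the 12 sums ran from 113.6 to 244.0 CPM.

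MSTRG.12272 had 4 leading rows. In WT hippocampus library 1 was led by MSTRG.12272.4 with 1415 counts, library 2 by MSTRG.12272.5 with 520 and library 3 by MSTRG.12272.3 with 1012. The fourth row, MSTRG.12272.6, had 3326 counts in WT cortex 2 and 0 in every other library. This locus also varied in its sum, from 89.0 to 1718 CPM within 5 × FAD cortex. MSTRG.8964, MSTRG.14345, MSTRG.6756, MSTRG.3639 and MSTRG.8237 were the other loci named by the same rule, each with a range of 100 points within a group and 2 or 3 leading rows.

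Some loci kept their shares. The first row of MSTRG.8955 held 44.4%, 44.4% and 44.8% of the locus in WT hippocampus, 42.3%, 43.7% and 43.0% in 5 × FAD hippocampus, 43.7%, 43.7% and 43.5% in WT cortex and 44.5%, 43.6% and 44.8% in 5 × FAD cortex. Both of its rows had over 2000 counts in every library. MSTRG.5362 and MSTRG.4301 also stayed within 2.3 and 2.2 points inside any group, and MSTRG.1072 within 1.4. MSTRG.1041 was the steadiest at 0.2 points, and its second row had only 0 to 15 counts.

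**Figure D2:**
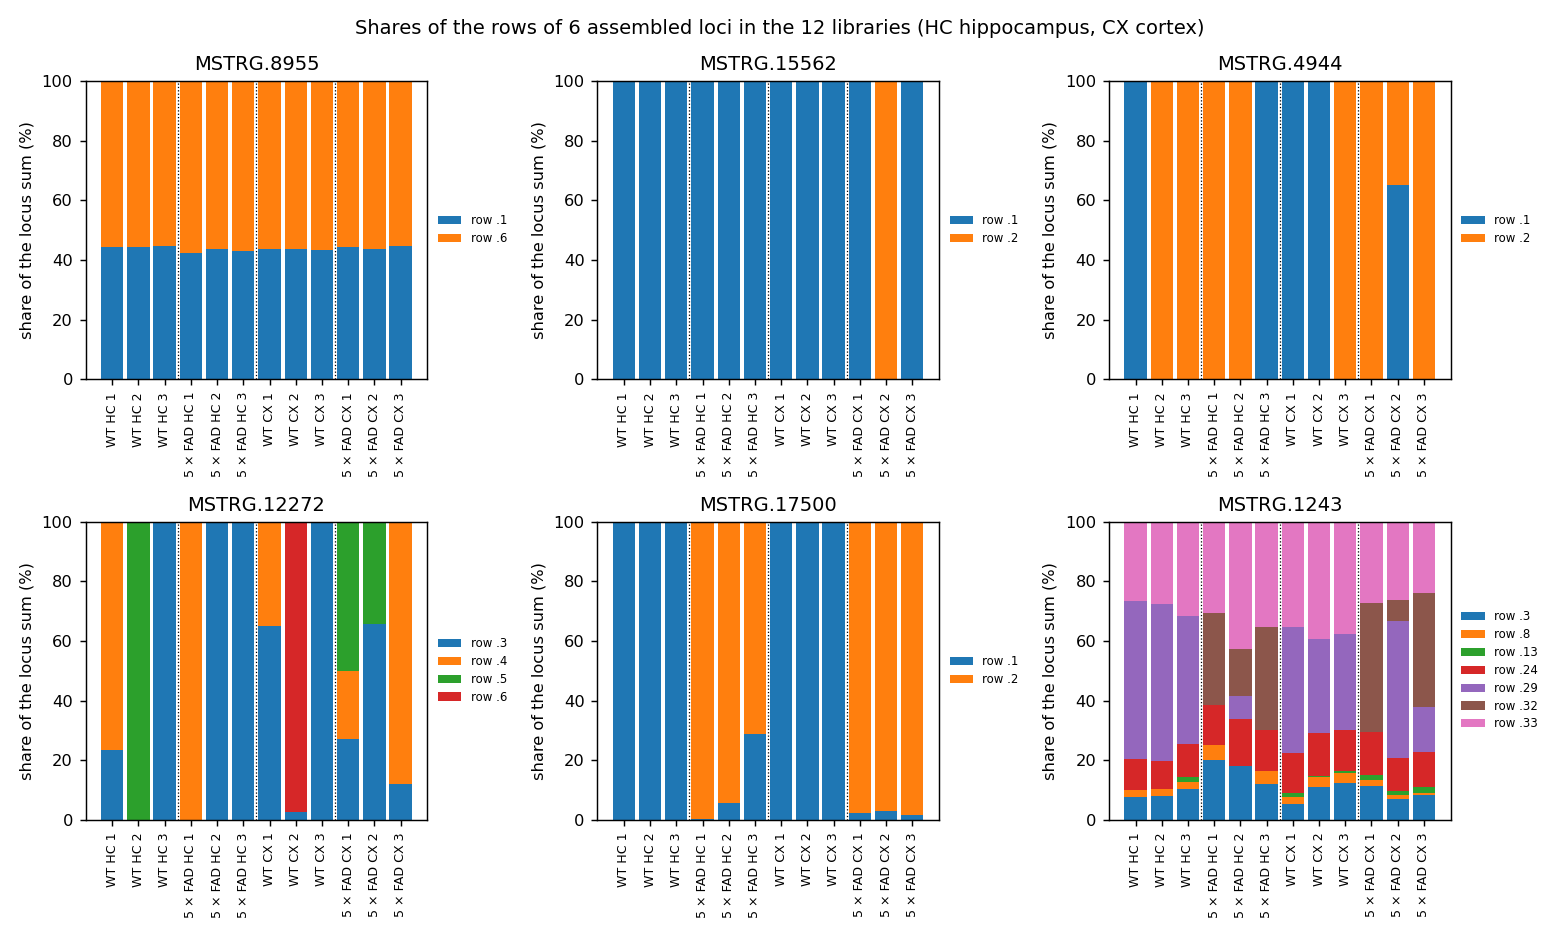
Shares of the rows (y axis, % of the locus sum; colours, rows by their last number) of 6 assembled loci in each of the 12 libraries (x axis; HC hippocampus, CX cortex; dotted lines separate groups). MSTRG.8955 keeps its shares within 1.3 points inside each group, MSTRG.15562, MSTRG.4944 and MSTRG.12272 switch within groups, row 2 of MSTRG.17500 is present in the 5 × FAD libraries and at 0 in WT, and row 32 of MSTRG.1243 follows the same split.

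The loci with many rows shifted among a few of them. In MSTRG.2290 the rows MSTRG.2290.14, MSTRG.2290.15, MSTRG.2290.16 and MSTRG.2290.24 led in turn. MSTRG.2290.15 held between 0 and 41.9% of the locus, while MSTRG.2290.24 stayed between 15.7% and 30.3%. In MSTRG.6385 the row MSTRG.6385.37 led in 11 libraries with 21.4% to 24.9% over all 12. In MSTRG.5356 the rows MSTRG.5356.11, MSTRG.5356.21, MSTRG.5356.23 and MSTRG.5356.32 led in turn, and each of these except MSTRG.5356.11 had at most 1 count in some library.

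Rows that were either abundant or absent were frequent. A row was called all-or-none where at least 1 library held 100 or more counts of it and every remaining library held 3 or fewer. This held for 269 of the 974 rows (27.6%), in 163 of the 337 loci. Of these, 84 were on in exactly 1 library and 30 were off in exactly 1. Each library had 88 to 125 of them on, the lowest in WT hippocampus 3 and the highest in 5 × FAD cortex 3. For 217 of the 269 rows (80.7%) the summed other rows of the locus had a higher mean CPM in the libraries where the row was off than where it was on, and the median ratio of the locus sum, off over on, was 0.91. Where it was on, such a row made up a median 0.38 of the locus sum.

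Few of these patterns followed the design over all 12 libraries. Only 2 rows, MSTRG.17500.2 and MSTRG.1243.32, were on in all 6 5 × FAD libraries and off in all 6 WT libraries, and 0 rows showed the reverse. No row was on in all libraries of a region and off in all of the other, and none followed the split by Xist and Y-linked counts.

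The share of all-or-none rows was compared with the rest of the table. Among rows with at least 100 counts in some library, they made up 30.6% (269 of 878) in the assembled loci with several rows, 2.9% (36 of 1245) in assembled loci with 1 row and 1.0% (67 of 6489) among Ensembl transcripts of genes with 2 or more rows. By the definition above, 39.7% of Ensembl genes switched (1000 of 2522), against 56.1% of the assembled loci. Among features with exactly 2 rows the values were 17.5% (69 of 394) and 45.1%. These sets differ in abundance and in the number of rows, and no test was made of the differences.

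Row shares were about as far apart within a group as between groups. The distance between 2 libraries was taken as the percentage of a locus sum that would have to move between rows to turn the shares of a library into those of the other, averaged over the 294 loci. It averaged 18.7% of the locus sum for the 12 pairs within a group, 19.8% for the 18 pairs of the same region and other genotype, and 19.8% for the 18 pairs that differed in both. Pairs of the same genotype and library number from the 2 regions averaged 17.9%, with a range of 15.2% to 19.9%, and pairs of the same genotype with another number and region averaged 19.4%. The same row led in 77.8% of loci, on average, for 2 libraries of a group and in 76.9% for libraries of the same region and different genotype. Pairs within WT hippocampus (16.8%) and WT cortex (17.6%) were closer than pairs within 5 × FAD hippocampus (20.9%) and 5 × FAD cortex (19.5%). The pairs share libraries, so these means are descriptions.

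**Figure D3:**
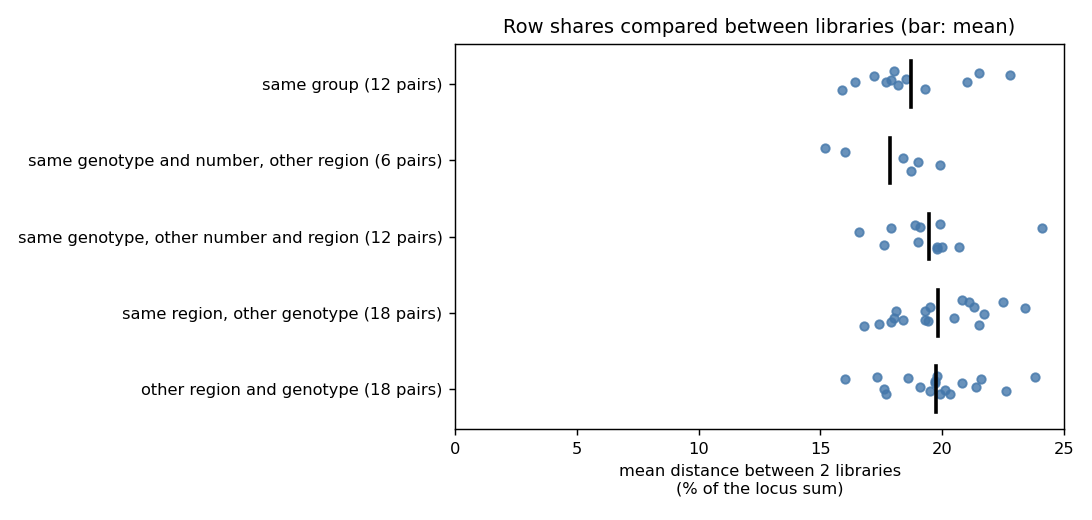
Distance of row shares between 2 libraries (x axis, % of the locus sum, mean over 294 loci) for the 66 pairs of libraries, arranged by what the pair shares; points are pairs, bars are means and the vertical scatter has no meaning. The 5 kinds of pair overlap, with means between 17.9% and 19.8%.

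The coefficient of variation between replicates was lower for locus sums than for their rows, while the variance of a sum was close to that of its rows added up. The median coefficient of variation of a locus sum within a group was 10.7% in WT hippocampus, 24.1% in 5 × FAD hippocampus, 15.4% in WT cortex and 14.0% in 5 × FAD cortex. For rows with a mean of at least 100 counts it was 16.2%, 35.1%, 22.6% and 23.4%. The variance of the sum over the summed variances of its rows had a median of 0.99, 1.0, 1.0 and 0.83 in the same order, where a value under 1 is given by rows that vary in opposite directions. A few loci dropped out as a whole. Sums of 0 in some library were found for 10 loci, of which 6 had a mean of at least 100 counts over the libraries. MSTRG.15988 had 0 counts in 5 × FAD hippocampus 1 and 2 but 745 in library 3, and MSTRG.2301 had 0 in 5 × FAD hippocampus 1 while the other libraries of that group held 1697 and 1767 CPM.

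The genotype comparison asks which loci differ between 5 × FAD and WT mice within a region. In the hippocampus 0 of the 333 loci that passed the filter on low counts were called by edgeR's quasi-likelihood test (Benjamini-Hochberg adjusted p under 0.05), where 0.0093% of all 21514 features were called. At an unadjusted p under 0.05 there were 38 loci (11.4%), against 7.74% of all features, and DESeq2 called 6. Here and below the DESeq2 counts are given without its share over all features, so they show only how calls depend on the test. Without the libraries 5 × FAD 1 and 2, 1 locus was called by edgeR. Of the 333 loci, 99 had a higher and 234 a lower fitted sum in 5 × FAD, with a median log2 fold change of -0.18 against 0.02 over all features. With library size as the only scaling the split was 122 higher and 211 lower, the median -0.12 and that of all features 0.08. The rows took 18.4% ± 0.87 (SD, n = 3) of the counts in WT hippocampus, with a range of 17.73% to 19.42%, and 16.6% ± 1.15 in 5 × FAD hippocampus, with a range of 15.41% to 17.7%. The groups did not overlap, and the difference of -1.84 percentage points had an exact two-sided permutation p of 0.1, the smallest that 3 against 3 allows. The value of 5 × FAD hippocampus 3 alone was 16.72%. Beside this, marker genes were summed over those of their transcripts that the lncRNA table holds, not over all their transcripts. The astrocyte markers (4 of 5 genes in the table) were at 452.6 to 1093 CPM in 5 × FAD hippocampus against 1395 to 1485 in WT. The oligodendrocyte markers (4 of 6 genes) were at 436.1 to 535.6 CPM against 297.6 to 389.0. Of the 6 microglia markers only Trem2 was in the table, at 40.2 to 186.8 CPM against 19.4 to 32.4. Their part in the result was not tested.

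In the cortex 0 of 334 loci were called by the same test, where 0.00463% of all 21610 features were called. At an unadjusted p under 0.05 there were 21 loci (6.29%), against 5.37% of all features, and DESeq2 called 3. Without the libraries 5 × FAD 1 and 2 edgeR again called 0. The sums were higher in 168 loci and lower in 166, with a median log2 fold change of 0.00. The rows took 16.9% ± 1.66 (SD, n = 3) of the counts in WT cortex and 17.3% ± 0.42 in 5 × FAD cortex, a difference of 0.35 percentage points (exact permutation p = 0.8), and 5 × FAD cortex 3 alone was at 16.96%. The astrocyte markers were at 884.8 to 1423 CPM in 5 × FAD cortex against 879.0 to 1504 in WT cortex. The oligodendrocyte markers were at 484.8 to 546.5 CPM against 257.1 to 422.1, and Trem2 at 19.7 to 230.1 CPM against 36.7 to 53.4. Their part in the result was not tested here either.

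MSTRG.17500 differed between genotypes in both regions in the use of its rows, and it was chosen with that difference known from earlier work on these data. Its second row, MSTRG.17500.2, had 0 counts in all 6 WT libraries, 1315, 1252 and 1136 in 5 × FAD hippocampus and 1986, 1836 and 2122 in 5 × FAD cortex. The first row, MSTRG.17500.1, had 542, 593 and 491 counts in WT hippocampus against 6, 77 and 458 in 5 × FAD, and 618, 770 and 618 in WT cortex against 49, 58 and 38. Row 2 thus held 71.3% to 99.5% of the locus in 5 × FAD and nothing in WT.

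The sum of MSTRG.17500 was 118.2 ± 7.4 CPM (SD, n = 3) in WT hippocampus and 339.5 ± 44.6 in 5 × FAD hippocampus. The log2 fold change was 1.54 (SE 0.17) with an edgeR adjusted p of 0.13. In the cortex the sum was 163.0 ± 14.5 CPM in WT and 480.5 ± 29.6 in 5 × FAD (log2 fold change 1.58, SE 0.13, edgeR adjusted p = 0.0762). Neither sum passed the test, although the groups did not overlap in either region. In each region DESeq2, a fit of all 12 libraries and a fit with Ensembl transcripts summed per gene brought it past the threshold. It stayed uncalled in the other 13 of 16 alternatives in either region. Leaving out each library in turn gave edgeR adjusted p of 0.06 to 0.413 in the hippocampus and 0.087 to 0.252 in the cortex. Without the libraries 5 × FAD 1 and 2 the log2 fold changes were 1.73 and 1.59.

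MSTRG.8241 changed its leading row between groups in the hippocampus. Its second row had 1294, 1376 and 1335 counts in WT hippocampus and 0, 77 and 134 in 5 × FAD hippocampus, while its first row had 0 in all 3 WT libraries and 331, 253 and 171 in 5 × FAD. The sum was 291.8 ± 13.2 CPM (SD, n = 3) in WT and 88.8 ± 7.3 in 5 × FAD (log2 fold change -1.70, SE 0.16, edgeR adjusted p = 0.0924). Without 5 × FAD 1 and 2 the log2 fold change was -1.67. The test of row usage, described below, gave an edgeR adjusted p of 0.00708. That call was lost in 4 of 11 alternatives, and leaving out each library in turn gave edgeR adjusted p of 3.22e-05 to 0.0746. In the cortex the second row led in all 6 libraries, and the sums overlapped, at 147.2 to 177.9 CPM in WT and 58.2 to 168.5 in 5 × FAD. There the log2 fold change was -0.40 with all libraries (edgeR adjusted p = 0.917) and -1.49 without 5 × FAD 1 and 2. The difference between the 2 regions in the genotype effect was -1.29 (SE 0.43) on the log2 scale, with an edgeR adjusted p of 0.639.

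**Figure D4:**
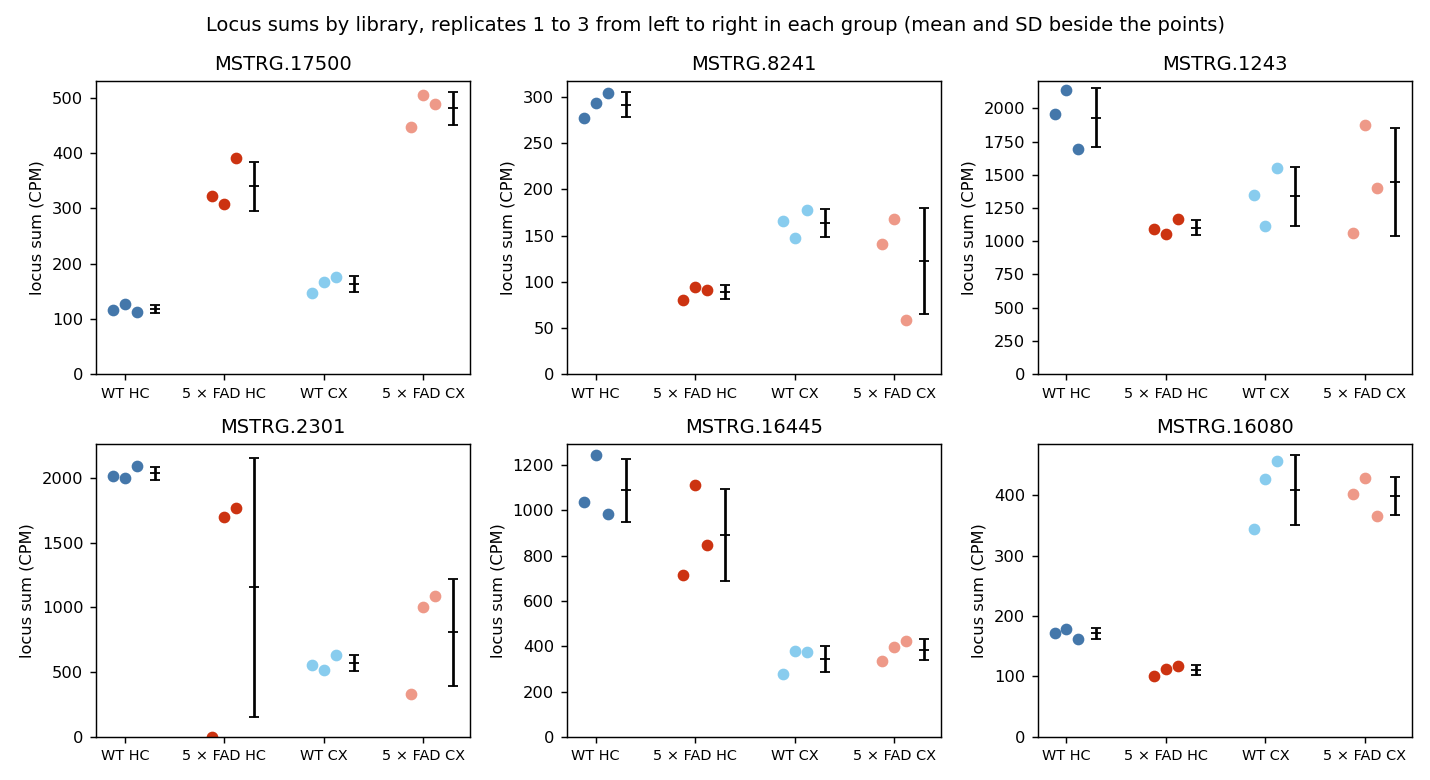
Locus sums (y axis, CPM) of 6 assembled loci in the 4 groups (HC hippocampus, CX cortex); points are libraries 1 to 3 from left to right, and the bar with caps is the mean with its SD. MSTRG.17500 is higher in 5 × FAD in both regions, MSTRG.8241 is lower in 5 × FAD hippocampus, MSTRG.2301 and MSTRG.16445 are higher in WT hippocampus than in WT cortex, MSTRG.16080 is lower there, and MSTRG.2301 is at 0 in 5 × FAD hippocampus 1.

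Row usage was tested with edgeR's diffSpliceDGE, which asks whether the rows of a locus changed unequally, with Benjamini-Hochberg adjustment over all loci and genes with 2 or more rows. Between genotypes in the hippocampus 9 of 230 loci were called (3.91%), against 1.01% of the 4949 loci and genes tested. They were MSTRG.10674, MSTRG.6775, MSTRG.12202, MSTRG.8241, MSTRG.1243, MSTRG.17500, MSTRG.17055, MSTRG.860 and MSTRG.2483. In the cortex 11 of 236 were called (4.66%), against 0.883%, namely MSTRG.17500, MSTRG.10364, MSTRG.15393, MSTRG.17297, MSTRG.18699, MSTRG.3640, MSTRG.1243, MSTRG.11248, MSTRG.7748, MSTRG.6747 and MSTRG.14025. MSTRG.1243 and MSTRG.17500 were called in both regions, and the sums of none of these loci were called. With limma's voom and diffSplice 1 locus was called in the hippocampus and 2 in the cortex. Leaving out each library in turn gave 8 to 18 and 9 to 17 by edgeR. The shares over all loci and genes in these fits are not given. The count therefore depended on the test and the libraries. A fit with 1 5 × FAD library cannot measure how rows vary between 5 × FAD libraries, so its counts of row usage are not given. The loci called under every alternative that could test them are described first.

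MSTRG.10674 was called in the hippocampus under all 11 alternatives that could test it. The filter of at least 10 counts in every library leaves it a single row, so usage could not be tested there. Its first row had 1, 0 and 1 counts in WT hippocampus and 816, 1211 and 1117 in 5 × FAD hippocampus, while its second row had 1090, 992 and 1017 against 726, 757 and 702. The first row thus went from at most 0.1% of the locus to between 52.9% and 61.5% (edgeR adjusted p = 2.78e-06 for usage). The limma adjusted p was 0.00219. In the cortex the same row had 928 counts in 5 × FAD 1 and at most 1 in the other 5 libraries. The locus sum in the hippocampus was 225.9 ± 12.6 CPM (SD, n = 3) in WT and 425.0 ± 43.5 in 5 × FAD (log2 fold change 0.93, SE 0.16, edgeR adjusted p = 0.326). The log2 fold change was 0.98 without 5 × FAD 1 and 2.

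In the cortex MSTRG.17500 (edgeR adjusted p = 3.01e-06 for usage) and MSTRG.10364 (3.08e-05) were called under all 11 alternatives that could test them. The filter of at least 10 counts in every library could not, since it drops rows at 0 in a group. The rows of MSTRG.10364 exchanged places. The first had 72, 109 and 79 counts in WT cortex and 0 in all 3 5 × FAD cortex libraries, and the second had 0, 0 and 1 against 63, 51 and 83. In the hippocampus the same rows exchanged places within the WT group, with 0, 154 and 116 counts of the first and 82, 0 and 0 of the second. MSTRG.17500 was also called in the hippocampus (edgeR adjusted p = 0.0127), but not by limma (adjusted p = 0.49). It lost that call in 5 of 11 alternatives, and its first row kept 458 counts in 5 × FAD hippocampus 3.

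MSTRG.1243 lost its call in 6 of 12 alternatives in either region. MSTRG.1243.32 had 0 counts in all 6 WT libraries, 1375, 726 and 1647 in 5 × FAD hippocampus and 2086, 481 and 2363 in 5 × FAD cortex. MSTRG.1243.29 had 4846, 5270 and 3186 counts in WT hippocampus and 0, 350 and 0 in 5 × FAD hippocampus, but 0, 3236 and 928 in 5 × FAD cortex, where it overlapped the 2384, 1641 and 1758 of WT. The usage test gave an edgeR adjusted p of 0.00727 in the hippocampus and 0.00209 in the cortex, and limma gave 0.4 and 0.939. A fit without 5 × FAD 1 and 2 cannot measure how these rows vary between the 5 × FAD libraries. The locus sum was 1929 ± 220.8 CPM (SD, n = 3) in WT hippocampus and 1103 ± 55.9 in 5 × FAD hippocampus (log2 fold change -0.79, SE 0.15, edgeR adjusted p = 0.456), and in the cortex the sums overlapped. The log2 fold changes without 5 × FAD 1 and 2 were -0.72 and 0.07.

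The other cortex loci with the smallest p were on in a single genotype in 1 row. MSTRG.3640.2 had 0 counts in WT cortex and 3157, 1329 and 2016 in 5 × FAD cortex. MSTRG.17297.2 had 0 in WT cortex and 848, 741 and 482 in 5 × FAD cortex. MSTRG.18699.11 had 556, 805 and 472 in WT cortex and 0 in 5 × FAD cortex. The hippocampus did not show the same split. There MSTRG.3640.2 had counts only in 5 × FAD 2, MSTRG.17297.2 in WT 2 and 3 and all 3 5 × FAD libraries, and MSTRG.18699.11 in all WT libraries and 5 × FAD 1. Their edgeR adjusted p for usage were 0.000197, 6.59e-05 and 0.000154, and their limma adjusted p were 0.789, 0.492 and 0.812. Each of the 3 lost its call in 1 of 11 alternatives, that with limma. MSTRG.15393.1 was likewise at 0 in WT cortex and at 220, 220 and 312 in 5 × FAD cortex. The usage of its locus lost the call in 3 of 11 alternatives, among them the fit without 5 × FAD 1 and 2.

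In the hippocampus the 3 WT libraries held 136, 229 and 165 counts of MSTRG.12202.3 and the 5 × FAD libraries 0 (edgeR adjusted p = 0.000131 for usage, limma adjusted p = 0.193). MSTRG.6775.12 was at 0 in WT and at 1720, 2264 and 185 counts in 5 × FAD (2.59e-05 and 0.694), and it had 1972 in WT cortex 1 and 0 in the other cortex libraries. In the hippocampus MSTRG.12202 lost its call in 1 of 11 alternatives. MSTRG.6775 lost its call in 4 of 12, among them the fit without 5 × FAD 1 and 2. Tested as single rows over the whole table, 2 rows of these loci passed edgeR's adjusted threshold between genotypes in the hippocampus, MSTRG.10674.1 and MSTRG.17500.2, where 0.0183% of 21894 features did. In the cortex 9 rows in 7 loci passed, where 0.0545% of 21999 did.

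The region comparison asks which loci differ between hippocampus and cortex. In WT mice 21 of 333 loci were called by edgeR's quasi-likelihood test (6.31%), against 1.26% of all 21629 features. The regions were fitted as unpaired although each mouse gave both, since the library numbers are not tied to mice. With the library number as a block no call held. Sums were higher in the hippocampus for 15 loci, where 0.767% of all features were, and lower for 6, where 0.49% were. The loci were more abundant than the features as a whole, with a median mean count of 1202 against 42.0, and the part of abundance in the result was not tested. At an unadjusted p under 0.05 there were 106 loci (31.8%), against 12.9% of all features. Of all 333 loci, 190 were higher and 143 lower in hippocampus, with a median log2 fold change of 0.07. With library size as the only scaling the median was 0.00 and the split 168 to 165, while the number called stayed at 21. Leaving out any library of the 6 left 1 to 9 loci called. Beside this, the summed choroid plexus markers (2 of 5 genes in the table, of which Folr1 was at or below 1 CPM in all libraries) were at 16.8 to 33.5 CPM in WT hippocampus and 3.7 to 4.1 in WT cortex. Their part in the result was not tested.

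MSTRG.2301 was called in each of those 6 fits. Its sum was 2017, 1998 and 2089 CPM in WT hippocampus and 556.6, 514.0 and 634.3 CPM in WT cortex, with a log2 fold change of 1.83 (SE 0.12) and an edgeR adjusted p of 0.00559. All hippocampus values were above all cortex values, and in the fit of all 12 libraries the log2 fold change was 1.82 with an edgeR adjusted p of 0.753. Its 3 rows shifted at the same time, since MSTRG.2301.2 had 146, 3217 and 3395 counts in WT hippocampus and 1854, 1929 and 25 in WT cortex. MSTRG.16445 was higher too, with sums of 1036, 1246 and 984.7 CPM in WT hippocampus and 277.7, 379.8 and 372.4 in WT cortex (log2 fold change 1.65, SE 0.17, edgeR adjusted p = 0.0197). Its shares stayed within 7.9 points inside any group. MSTRG.16446 (163.0, 181.2 and 166.1 against 48.2, 60.5 and 66.6 CPM), MSTRG.17585 and MSTRG.2206 had log2 fold changes of 1.53, 1.47 and 1.10.

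The other loci called higher in WT hippocampus were MSTRG.11303, MSTRG.2302, MSTRG.17116, MSTRG.6602, MSTRG.2428, MSTRG.2200, MSTRG.2290, MSTRG.16641, MSTRG.1041 and MSTRG.8241, with log2 fold changes between 0.82 and 1.89. Among them MSTRG.2290, the locus with 21 rows, was at 6124 ± 521.4 CPM (SD, n = 3) in WT hippocampus and 2678 ± 482.1 in WT cortex.

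Of the 6 loci called lower, MSTRG.16080 had sums of 172.7, 178.9 and 161.8 CPM in WT hippocampus and 343.9, 426.9 and 456.1 in WT cortex, with a log2 fold change of -1.27 (SE 0.15) and an edgeR adjusted p of 0.0204. MSTRG.16070, MSTRG.16076, MSTRG.16078, MSTRG.2885 and MSTRG.12870 had log2 fold changes of -1.41, -1.24, -1.22, -1.15 and -0.86. In 5 × FAD mice their log2 fold changes were -0.46 to -1.87.

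In 5 × FAD mice 0 of 335 loci were called between the regions by edgeR's adjusted test, where 0.0139% of all 21614 features were. At an unadjusted p under 0.05 there were 61 loci (18.2%), against 9.59% of all features. DESeq2 called 21, again without its share over all features. Of the 21 loci called in WT, 19 had the same direction in 5 × FAD and 11 had an unadjusted p under 0.05 there. Among all features tested in both genotypes 260 were called in WT. Of these, 244 had the same direction in 5 × FAD and 169 had an unadjusted p under 0.05 there. Of all 333 loci tested in both genotypes 236 had the same direction, and of 20317 features 11549 did. The WT and 5 × FAD libraries are different, so these comparisons share no sample. MSTRG.17116 (log2 fold change -0.19) and MSTRG.8241 (-0.48) had the other sign in 5 × FAD. MSTRG.16080 was at 110.4 ± 8.3 CPM (SD, n = 3) in 5 × FAD hippocampus and 399.4 ± 31.7 in 5 × FAD cortex (log2 fold change -1.86, SE 0.18, edgeR adjusted p = 0.0638). MSTRG.2301 had a log2 fold change of 0.50 with an SE of 1.70, and it was at 0 in 5 × FAD hippocampus 1.

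**Figure D5:**
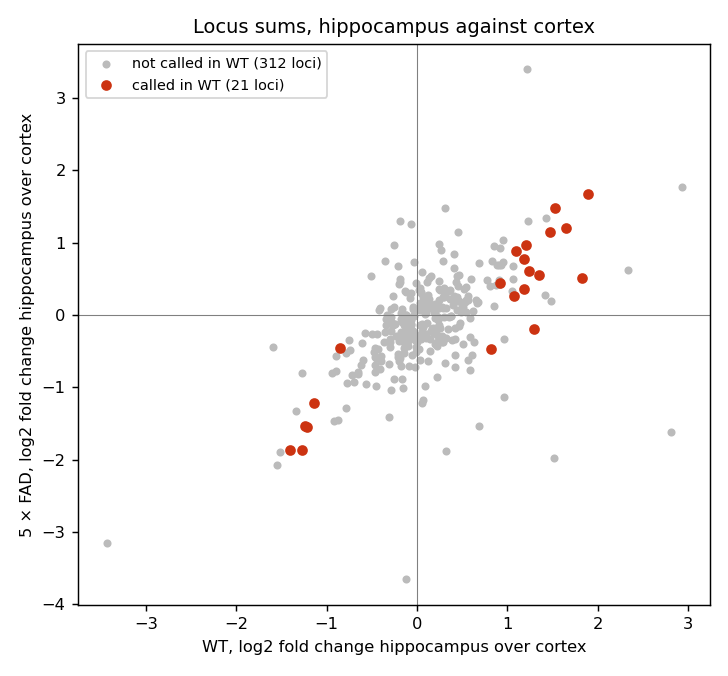
Log2 fold change of the locus sum, hippocampus over cortex, in WT mice (x axis) and 5 × FAD mice (y axis) for the 333 assembled loci tested in both; red points are the 21 loci called in WT and grey points the 312 others. Of the red points 19 have the same sign in both genotypes, and the x values of the red points were used to choose them.

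The interaction, a test of whether the genotype effect differed between the regions, called 0 of 335 loci with edgeR's quasi-likelihood test, where 0.00828% of 24158 features were called. At an unadjusted p under 0.05 there were 30 loci (8.96%), against 6.86% of all features, and DESeq2 called 1. A locus called between regions in WT and not in 5 × FAD was therefore not shown to differ between the genotypes.

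Row usage differed between regions in 6 of 230 loci in WT (2.61%), against 1.11% of all loci and genes tested, and in 4 of 248 in 5 × FAD (1.61%), against 0.844%. In WT, MSTRG.15988.2 had 326, 197 and 290 counts in hippocampus and 0 in cortex, while MSTRG.15988.1 had 909, 1146 and 798 against 795, 1095 and 737 (edgeR adjusted p = 1.7e-05 for usage, limma adjusted p = 0.0431). MSTRG.15988.2 was at 0 in all 5 × FAD libraries as well. In 5 × FAD, MSTRG.10464.2 had 0 counts in hippocampus and 924, 1277 and 1596 in cortex (edgeR adjusted p = 2.96e-05, limma adjusted p = 0.0461), but in WT it had 2003, 2101 and 0 in hippocampus and 1218, 0 and 0 in cortex. These 2 loci were called under all 10 alternatives that could test them. The filter of at least 10 counts in every library leaves each a single row, so usage could not be tested there. The other WT loci were MSTRG.5222, MSTRG.12202, MSTRG.7849, MSTRG.7748 and MSTRG.14025, and the other 5 × FAD loci were MSTRG.12602, MSTRG.6775 and MSTRG.1062, and limma called none of these 8. The locus sums of the 10 were not called either.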

How the data were processed

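The table deposited by the authors gives raw, whole-number counts of each transcript in 12 libraries, made from rRNA-depleted, stranded, paired-end libraries. The submitters' processing notes name Trimmomatic 0.36 and edgeR. The assembler, aligner, counter and genome build are not given in the sources used here, nor is whether reads or rounded estimates were counted, which bears on how reads shared by rows were divided. All 12 columns were used and 0 were left out. Group and number came from the library labels.

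Rows of each assembled locus were summed, Ensembl transcripts stayed single, and the whole table was tested in R 4.3.3 with edgeR 4.0.16 (filterByExpr, TMM, glmQLFit, glmQLFTest, Benjamini-Hochberg, threshold 0.05) on the 6 libraries compared, or all 12 for the interaction. CPM of sums and rows used TMM-scaled sizes of all 12 libraries. Row usage was tested with diffSpliceDGE over assembled loci and Ensembl genes, which were paired through GENCODE M21 (225 Ensembl rows did not match). Alternatives used DESeq2 1.42.0 and limma 3.58.1. The functions were tested on simulated counts. The loci, lists and definitions were chosen with earlier results of these data known. Named loci were those called (up to 5 a direction and comparison for sums, 5 a comparison for usage), the 5 with most rows, the 5 largest, the 8 with the widest and the 5 with the steadiest shares, and those named in earlier work. The remaining called loci are listed in full beside them, chosen after their values were seen. MSTRG.8598, named in earlier work, has 1 row and is not among the loci.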

Additional observations from a re-analysis of the deposited data

How the results depend on the processing

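All 347 alternative values of the 23 locus sums followed kept their direction. The numbers of loci called were less stable. They are given in this section without the share over all features in the same fit, so they show only how calls depend on the processing. For sums, DESeq2 called 6 loci in the hippocampus between genotypes, 3 in the cortex, 40 between regions in WT, 21 in 5 × FAD and 1 in the interaction. A fit of all 12 libraries called 1, 1, 13 and 14 in the first 4 comparisons. Ensembl transcripts summed per gene gave 2 in the hippocampus, 1 in the cortex and 2 between regions in 5 × FAD, and single rows in place of sums gave 2, 9 and 1. At least 10 counts in every library gave 1 in the hippocampus and 3 between regions in 5 × FAD. No filter on low counts gave 9 between regions in WT. Without the libraries 5 × FAD 1 and 2 the hippocampus had 1. Leaving out each library in turn gave 0 to 2, 0 to 0, 1 to 9, 0 to 1 and, for the interaction, 0 to 1.

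For row usage, in the order hippocampus, cortex, WT regions and 5 × FAD regions, at least 10 counts in every library left 2, 1, 1 and 0 loci called, and limma 1, 2, 1 and 2. Without 5 × FAD 1 and 2, an alternative chosen after seeing the data, the genotype counts were 44 and 42. Leaving out each library gave 8 to 18, 9 to 17, 6 to 12 and 7 to 10. The cause of these changes was not tested, except that the filter removes rows at 0 in any library by its construction.

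With the library number as a replicate block, 0 loci were called between regions in WT in place of 21, and row usage called 26, 24, 13 and 16. Whether a number marks 1 mouse is not known. Deviations from the group means of same-numbered libraries of a genotype correlated by -0.023 to 0.137 over features, and 5 of the 12 libraries correlated best with their own number in the other region, so the numbers were not taken as pairs. The Xist and Y-linked counts divided the 5 × FAD numbers alike in both regions. Switching loci numbered 98 with a minimum of 500 counts, and 155 to 164 when a library was left out, and all-or-none rows 260 to 269. Depth limits the rows below 3 counts, and 43 loci under 100 counts in some library were left out of the shares.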
